A study of Saccharomyces cerevisiae with 116 samples.

Results

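The 10 genes described here belong to the yeast G1/S switch and were followed through 116 RNA-seq libraries of the budding yeast Saccharomyces cerevisiae. They were chosen by name, with earlier results of these data known: the G1 cyclin genes CLN1 (YMR199W), CLN2 (YPL256C) and CLN3 (YAL040C), the S phase cyclin genes CLB5 (YPR120C) and CLB6 (YGR109C), the Pho85 cyclin genes PCL1 (YNL289W) and PCL2 (YDL127W), and the regulators WHI5 (YOR083W), YOX1 (YML027W) and NRM1 (YNR009W). All 10 were found in each count table, of 6705 to 6709 open reading frame rows, and all 10 passed the filter on low counts in every fit.

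The strain was BY4741, a laboratory haploid that answers alpha factor, grown in YPD, a rich medium. In the first set of libraries S. pombe cells had been added to the samples as a spike (16 libraries), and cells held in G1 for 2 h with 25 uM alpha factor, the mating pheromone, were compared with asynchronous cells, both at T30 in NaCl and at T0, with 3 libraries in each of these 4 groups. Cells in cycloheximide, which blocks translation, at label values of 0.1 and 0.2 had 1 library at each of both times. Cycloheximide was given for 2 h, here and in the second set. The second set held no spike (50 libraries). It compared nocodazole (10 ug/ml), which holds cells in mitosis by removing microtubules, with alpha factor, each for 2 h. Its salt course was labelled T0, T15, T30, T45 and T60 and its heat course T0, T10, T20, T30 and T40, with 2 libraries at T0 and 3 at salt T30 or heat T10 and 1 at every other time. It also held salt at T30 and T0 after nocodazole for 3.5 h and in cycloheximide at 0.1 (2 libraries each), and single libraries in cycloheximide at 0.2, in asynchronous cells and at a time labelled t0'. The third set was 50 polysome libraries: an input and 9 gradient fractions from asynchronous cells at T30 and T0, 2 gradients each, and 1 gradient of alpha-factor cells at T0. The labels give neither the unit of T or of the cycloheximide values nor the meaning of t0'. In the second set, the replicate 2 libraries at T30 carry salt labels of 0.5 and 0.7 and those at heat T10 carry temperatures of 33 and 37, and these were pooled with the unlabelled library of replicate 1. The fits count them as separate libraries although they share a replicate number and differ in label. Where 3 values are listed for such a group, the order is replicate 1, then the lower and the higher label. The design text calls the replicates biological but does not say whether same-numbered libraries share a culture, so a p-value measures the spread between these libraries.

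In budding yeast, commitment to division (Start) runs through 1 kinase, Cdc28, and a chain of cyclins. Cln3 is the cyclin that acts first: with Cdc28 it relieves the repressor Whi5 from SBF, and SBF and the related factor MBF then turn on a wave of late G1 genes. CLN1, CLN2 and PCL1 are SBF targets whose cyclins drive budding and further cyclin transcription, while Clb5 and Clb6 start DNA replication. Nrm1 switches MBF genes off again after Start, and Yox1 represses genes expressed between mitosis and G1, CLN3 among them. Alpha factor acts through Far1, an inhibitor of the Cln kinases, and so holds cells before this wave.

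Levels are given in CPM, the counts of a gene per 1000000 counts on S. cerevisiae open reading frames in the library. Changes are log2 changes from edgeR's quasi-likelihood test with their standard error, and a gene was called where its p-value, adjusted over all genes tested by the method of Benjamini and Hochberg, was under 0.05. Libraries held 1555271 to 5469230 counts in the first set, 1794997 to 7043273 in the second and 365088 to 5081617 in the third. In the first set the summed level of 9 pheromone-induced genes ran from 8006 to 10900 CPM in alpha-factor cells at T0 and from 91.0 to 117 CPM in asynchronous cells at T0, and that of 7 early stress genes ran from 19923 to 25865 CPM in asynchronous cells at T30 and from 320 to 360 CPM at T0. In the first set 1 library stood apart: alpha T30 replicate 2 of the first set had a pheromone sum of 3426 CPM, against 6327 and 6638 CPM in its replicates 1 and 3, and a summed level of 23 late G1 genes of 4544 CPM, against 1270 and 1916 CPM. Its part in the salt results of alpha-factor cells is given beside them. In these bulk samples, fewer cells in a phase and less RNA per cell cannot be told apart.

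Before any stress, alpha-factor cells differed from asynchronous cells at 8 of the 10 genes. CLN3 and PCL2 were higher, and CLN1, PCL1, CLB5, CLB6, YOX1 and NRM1 were lower. Of all 5744 genes tested, 12.8% were called in this comparison, 8.6% higher and 4.23% lower. The median log2 change was -2.40 over the 10 genes and -0.01 over all genes. The summed level of 8 histone genes, which mark S phase, was 561 to 609 CPM in alpha-factor cells and 3622 to 3788 CPM in asynchronous cells.

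CLN3, at the head of the chain, had 120, 169 and 171 CPM in the 3 alpha-factor libraries, against 41.8, 62.5 and 39.5 CPM in asynchronous cells. The groups did not overlap, and the difference was 1.69 ± 0.24 on the log2 scale, or 3.23-fold (adjusted p = 0.00047). WHI5, the repressor that Cln3 counters, had 4.45, 7.65 and 10.2 CPM in alpha-factor cells and 6.50, 12.4 and 13.7 CPM in asynchronous cells. These groups overlapped, and the log2 difference of -0.52 ± 0.36 missed the threshold (edgeR adjusted p = 0.43).

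Among the G1 cyclins of the wave, CLN1 had 11.6, 8.27 and 7.01 CPM in alpha-factor cells, against 74.3, 95.4 and 92.7 CPM in asynchronous cells. All 3 arrested libraries lay far below all 3 asynchronous ones (log2 difference -3.22 ± 0.63, adjusted p = 0.0041). CLN2, its closest relative, had 36.9, 62.8 and 37.2 CPM in alpha-factor cells and 116, 161 and 128 CPM in asynchronous cells. Its groups did not overlap either, but the log2 difference of -1.51 ± 0.70 was not called (adjusted p = 0.21); it was called, at -1.63, when libraries with the same replicate number were paired (adjusted p = 0.0084).

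The Pho85 cyclins went opposite ways. PCL1 had 0.342, 3.93 and 1.62 CPM in alpha-factor cells and 64.1, 87.4 and 92.2 CPM in asynchronous cells, which was the widest gap among the 10 genes (log2 difference -5.10 ± 0.98, adjusted p = 0.0039). PCL2 had 475, 402 and 495 CPM in alpha-factor cells and 28.8, 45.3 and 42.5 CPM in asynchronous cells. It was 12-fold higher in the arrested cells (log2 difference 3.59 ± 0.26, adjusted p = 1.4e-06). Of the 9 other genes of this family on the list used here (8 cyclin genes and PHO85 itself), 0 were called higher and 1 lower: PCL9, another Pho85 cyclin gene, at -2.86 ± 0.29 (adjusted p = 3.0e-05).

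CLB5 had 17.8, 14.5 and 13.5 CPM in alpha-factor cells and 43.8, 44.2 and 52.7 CPM in asynchronous cells. CLB6 had 0.684, 2.48 and 0 CPM in alpha-factor cells and 20.1, 26.1 and 21.5 CPM in asynchronous cells. Both S phase cyclin genes were lower in every arrested library, CLB5 by a log2 difference of -1.57 ± 0.45 (adjusted p = 0.035) and CLB6 by -3.98 ± 1.17 (adjusted p = 0.042). Leaving out any 1 of the 6 libraries ended both calls, with adjusted p of 0.074 to 0.12 for CLB5 and 0.067 to 0.15 for CLB6.

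Both repressor genes were lower as well. YOX1 had 1.03, 2.69 and 1.08 CPM in alpha-factor cells and 31.4, 49.9 and 40.5 CPM in asynchronous cells (log2 difference -4.42 ± 0.98, adjusted p = 0.0086). NRM1 had 0.684, 1.24 and 0.539 CPM in alpha-factor cells, against 14.7, 22.3 and 22.4 CPM in asynchronous cells (log2 difference -4.33 ± 0.57, adjusted p = 0.00023). CLN1, CLN3, PCL1, PCL2, YOX1 and NRM1 were called with any 1 library left out. Of 23 other late G1 genes, 12 were lower and 1 was higher, with MCD1 (cohesin, -4.28 ± 0.83) and TOS4 (-3.13 ± 0.75) among the lower. Of 18 other Start regulators, FAR1 (2.26 ± 0.24) and the stress-induced repressor gene XBP1 (2.13 ± 0.37) were higher, and RME1 (-1.01 ± 0.20) and the Clb kinase inhibitor gene SIC1 (-1.03 ± 0.24) were lower.

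**Figure D1:**
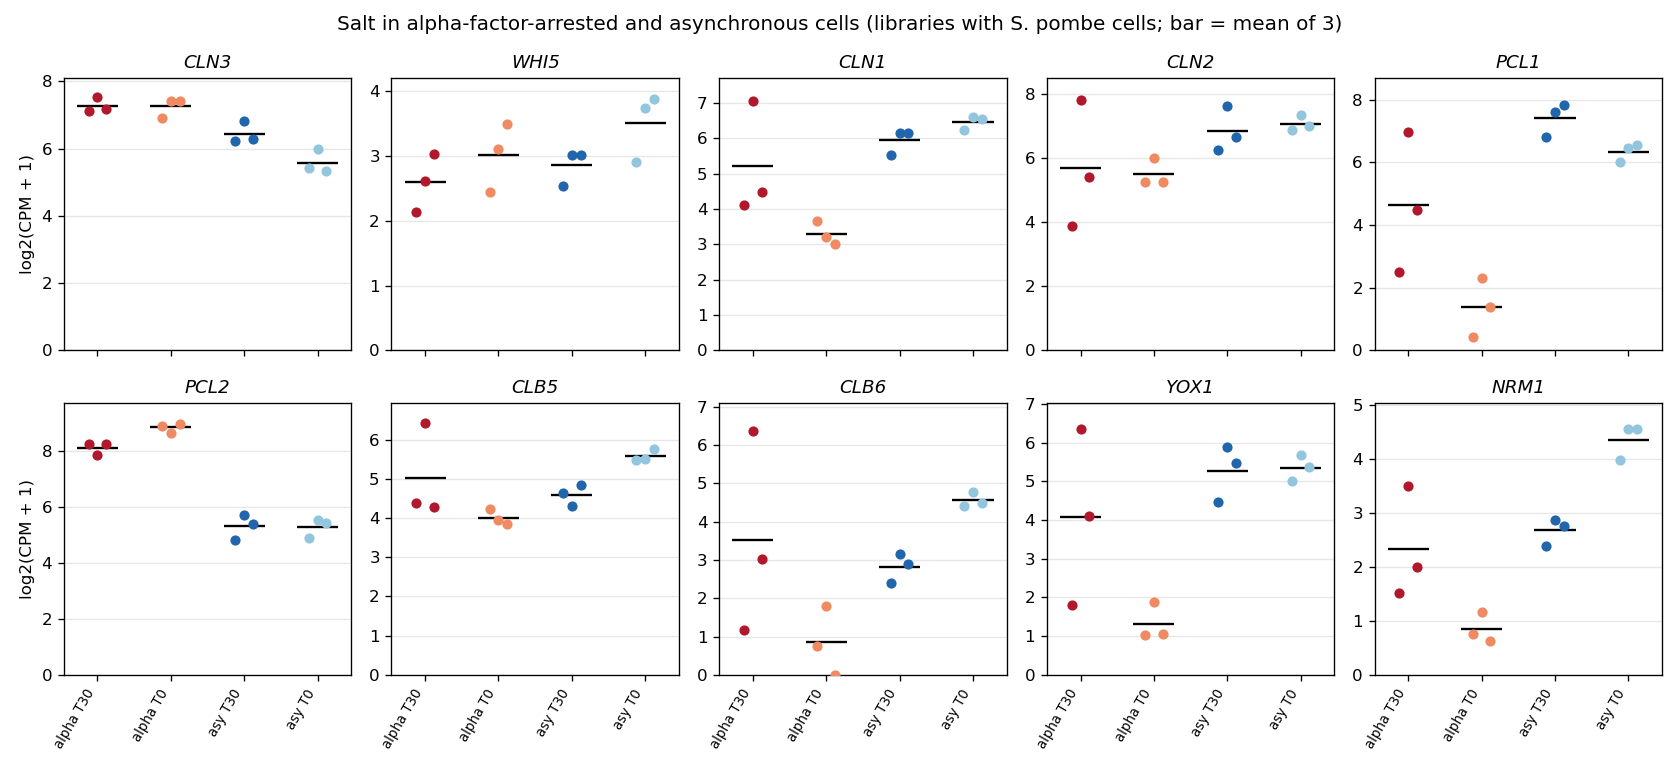
Level of each gene as log2(CPM + 1), with a scale of its own per panel, in alpha-factor-arrested (alpha) and asynchronous (asy) cells at T30 in salt and at T0. Each point is 1 library with S. pombe cells and the bar is the mean of 3. CLN3 and PCL2 lie higher in alpha T0 than in asy T0 and most other genes lower, and in alpha T30 the uppermost point of CLN1, PCL1, CLB5, CLB6 and YOX1 is replicate 2.

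In asynchronous cells CLN3 rose with salt, and CLB5 and NRM1 fell, so 3 of 10 genes were called (5 with pairing by replicate number) where 41.8% of all genes tested were (22.2% higher and 19.6% lower). The libraries at T30 and T0 did not overlap for 6 of the 10. Overlap was not counted over all genes, of which 2822 of 5744 had an unadjusted edgeR p under 0.05. The median log2 change was -0.45 over the 10 genes and 0.05 over all genes. Of the 10 mitotic genes 6 fell and 0 rose, with a median log2 change of -0.63 and a summed level of 895 to 1331 CPM at T30 and 1255 to 1750 CPM at T0. Of the 8 histone genes 3 fell and 0 rose, with a sum of 2902 to 3677 CPM at T30 and 3622 to 3788 CPM at T0. The part of either in these changes was not tested. Scaling by S. pombe totals moved the median of all genes to 0.61 and ended all 3 calls, with CLN3 at 1.30 (adjusted p = 0.052).

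CLN3 had 73.5, 113 and 77.2 CPM at T30, against 41.8, 62.5 and 39.5 CPM at T0, a log2 change of 0.73 ± 0.24 (adjusted p = 0.028). Omitting replicate 1 or 3 at T0, or replicate 2 at T30, ended this call, and over all 6 omissions the log2 change was 0.48 to 0.96 with adjusted p up to 0.13. WHI5 had 4.77, 7.12 and 7.07 CPM at T30 and 6.50, 12.4 and 13.7 CPM at T0. Its change of -0.90 ± 0.36 was not called (adjusted p = 0.061), but it was with pairing by replicate number (-0.86, adjusted p = 0.0078).

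Of the S phase cyclin genes, CLB5 had 23.9, 18.8 and 27.6 CPM at T30 and 43.8, 44.2 and 52.7 CPM at T0, and every stressed library lay below every unstressed one (log2 change -1.16 ± 0.44, adjusted p = 0.048). That call was lost without any 1 of the 6 libraries (-1.21 to -1.02, adjusted p 0.079 to 0.14). CLB6 had 4.24, 7.91 and 6.43 CPM at T30 and 20.1, 26.1 and 21.5 CPM at T0, also without overlap, and its change of -1.99 ± 0.97 was called only with pairing (-2.27, adjusted p = 0.012, against 0.12 without it).

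PCL1 had 111, 193 and 225 CPM at T30, all above the 64.1, 87.4 and 92.2 CPM at T0, with a change of 0.97 ± 0.72 that was not called (adjusted p = 0.31). CLN1 (-0.65 ± 0.55), CLN2 (-0.25 ± 0.68), PCL2 (-0.10 ± 0.25) and YOX1 (-0.13 ± 0.72) were not called either. NRM1 had 4.24, 6.33 and 5.79 CPM at T30 and 14.7, 22.3 and 22.4 CPM at T0. It fell by 1.98 ± 0.45 on the log2 scale (adjusted p = 0.0035), and this call held with any 1 library left out. Of the 23 other late G1 genes, 5 fell and 1 rose, with HO (-4.49 ± 0.43) and the mannosyltransferase gene MNN1 (-2.70 ± 0.51) falling most among those averaging at least 10 CPM. Of the 18 Start regulators, 3 rose, XBP1 by 4.78 ± 0.35, and 1 fell, FAR1 by 2.94 on the log2 scale with a standard error of 0.26. Of the 9 Pho85 genes, 4 rose, PCL8 by 1.52 ± 0.20 and PCL5 by 1.03 ± 0.16, and PCL9 fell (-1.32 ± 0.27).

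In alpha-factor cells the same salt treatment gave 6 calls among the 10 genes, against 9.09% of all genes tested (5.47% higher and 3.62% lower): CLN1, PCL1, CLB6, YOX1 and NRM1 rose and PCL2 fell. Much of this lay in 1 library. CLN1 had 16.4, 132 and 21.5 CPM at T30 in replicates 1, 2 and 3, against 11.6, 8.27 and 7.01 CPM at T0. PCL1 had 4.65, 124 and 21.5 CPM at T30 and 0.342, 3.93 and 1.62 CPM at T0. Each T30 library was above each T0 library for both genes, and replicate 2 at T30 was far above the other two.

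Replicate 2 at T30 was also far above the other libraries for the S phase cyclin genes and YOX1, while the groups overlapped for CLB6 and YOX1. CLB5 had 19.8, 84.2 and 18.5 CPM at T30 and 17.8, 14.5 and 13.5 CPM at T0. CLB6 had 1.24, 81.9 and 7.17 CPM at T30 and 0.684, 2.48 and 0 CPM at T0. YOX1 had 2.48, 81.2 and 16.1 CPM at T30, against 1.03, 2.69 and 1.08 CPM at T0. In replicate 2 at T30 these genes passed their levels in unstressed asynchronous cells, while replicates 1 and 3 stayed below them.

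NRM1 had 1.86, 10.3 and 2.99 CPM at T30 and 0.684, 1.24 and 0.539 CPM at T0. The log2 changes were 4.30 ± 0.98 for PCL1, 4.29 ± 1.16 for CLB6, 4.04 ± 0.98 for YOX1, 2.50 ± 0.62 for CLN1 and 2.37 ± 0.61 for NRM1 (adjusted p 0.017 to 0.039). Without replicate 2 at T30 they were 2.30 for PCL1, 1.32 for CLB6, 2.09 for YOX1, 0.99 for CLN1 and 1.25 for NRM1, and none was called (adjusted p 0.065 to 0.42). None of the 5 was called without any 1 of the 3 T0 libraries either, where the log2 changes stayed between 2.19 and 5.94. CLB5 was not called (1.30 ± 0.45, adjusted p = 0.092), though it was with pairing (1.28, adjusted p = 0.028) and by DESeq2 (1.30, adjusted p = 0.045). In a fit of these 6 libraries alone, 1 of the 10 genes was called.

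The upstream pair did not pass the test in arrested cells. CLN3 had 139, 182 and 144 CPM at T30 and 120, 169 and 171 CPM at T0, so the groups overlapped (-0.09 ± 0.23, adjusted p = 0.88). WHI5 differed by -0.64 ± 0.38 (adjusted p = 0.34) and CLN2 by 0.84 ± 0.69 (adjusted p = 0.51), with 13.6, 223 and 41.8 CPM of CLN2 at T30 and 36.9, 62.8 and 37.2 CPM at T0. PCL2 fell to 300.0, 227 and 302 CPM at T30, against 475, 402 and 495 CPM at T0 (-0.81 ± 0.23, adjusted p = 0.0496). Its call held without T30 replicate 1 and was lost without each of the other 5 libraries (-0.87 to -0.64, adjusted p 0.091 to 0.16). Of the 9 pheromone genes, 5 fell and 0 rose, with a median log2 change of -1.14. Of the 8 histone genes, 3 rose and 0 fell, with a sum of 781 to 1140 CPM at T30 and 561 to 609 CPM at T0, and the part of either group of genes was not tested. PLM2 (1.49 ± 0.42) was the single late G1 gene of 23 that rose, and 0 fell.

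A direct test of the difference between the salt responses, alpha-factor cells minus asynchronous cells, called 4 of the 10 genes, all higher, where 8.79% of all genes tested were called (3.73% higher and 5.07% lower). These were CLB6 (6.28 ± 1.52, adjusted p = 0.024), NRM1 (4.35 ± 0.76, adjusted p = 0.0060), CLN1 (3.15 ± 0.83, adjusted p = 0.034) and CLB5 (2.46 ± 0.62, adjusted p = 0.030). YOX1 (4.17 ± 1.23, adjusted p = 0.054) and PCL1 (3.33 ± 1.22, adjusted p = 0.11) missed the threshold. With pairing 7 were called, which added YOX1 (4.22, adjusted p = 0.0015) and PCL1 (3.27, adjusted p = 0.015) as higher and CLN3 (-0.80, adjusted p = 0.0088) as lower in the arrested cells.

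NRM1 differed without any 1 of the 12 libraries (3.23 to 4.88, adjusted p up to 0.021). Without alpha T30 replicate 2, 3 genes were called, and CLB6 was not (3.31, adjusted p = 0.075). The count was 1 without alpha T0 replicate 1, alpha T0 replicate 3, asynchronous T30 replicate 1 or asynchronous T0 replicate 2. It was 2 without alpha T0 replicate 2, asynchronous T30 replicate 3, or asynchronous T0 replicate 1 or 3, and 6 without alpha T30 replicate 1. At T30 itself, 12.5% of all genes tested differed between alpha-factor and asynchronous cells (7.49% higher), and 2 of the 10 genes did, CLN3 (0.88 ± 0.24, adjusted p = 0.030) and PCL2 (2.88 ± 0.26, adjusted p = 1.3e-05). CLN3 was not called there without alpha T30 replicate 1 or 2 or asynchronous T30 replicate 1 or 3 (adjusted p up to 0.11). Pairing called CLB6 (2.02, adjusted p = 0.035) and PCL1 (-2.08, adjusted p = 0.0037) as well, and leaving out alpha T30 replicate 2 called CLN1 (-1.59), CLN2 (-2.14) and PCL1 (-3.76).

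**Figure D2:**
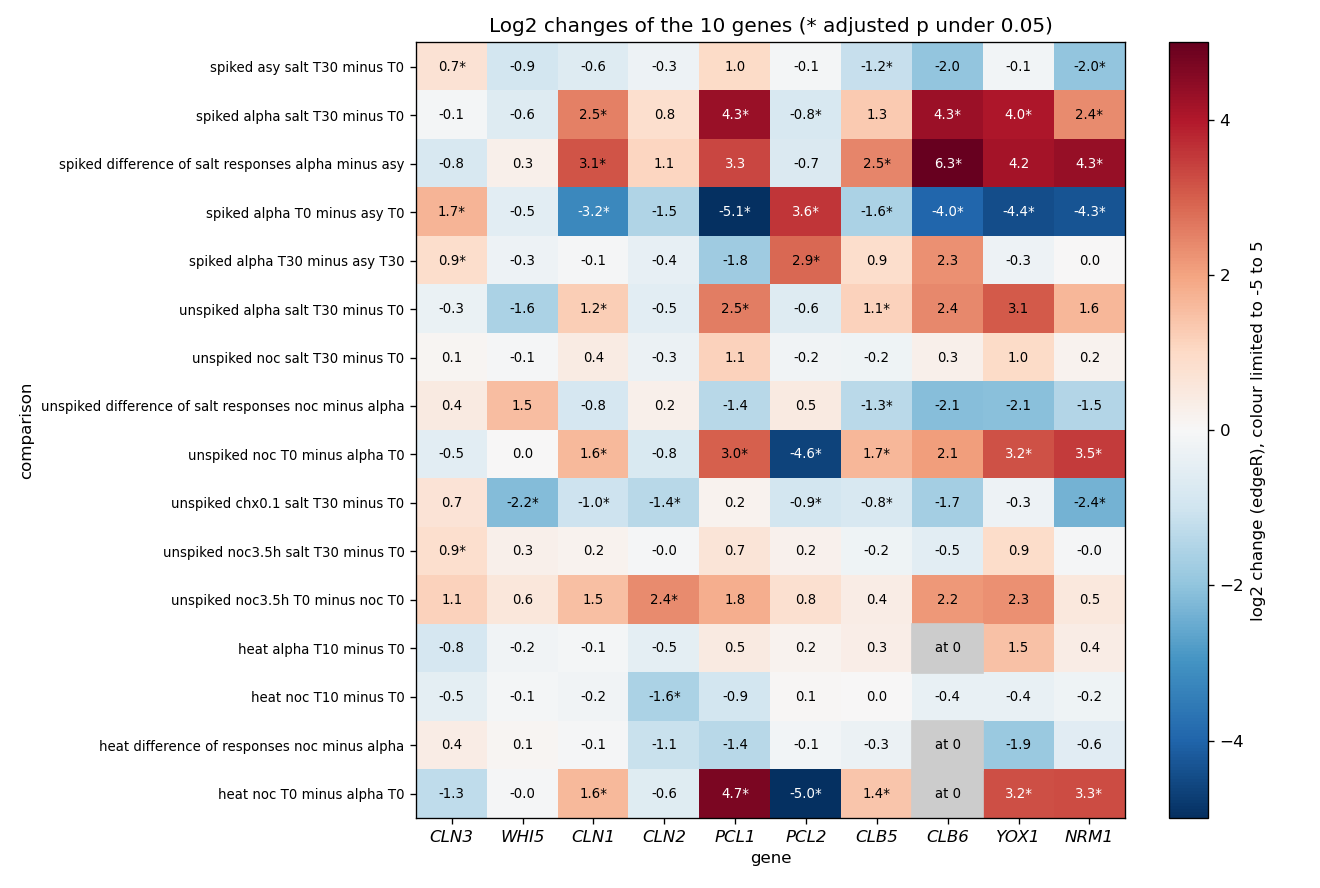
Log2 change of each gene (columns) in 16 comparisons (rows, first-named group minus second) from edgeR. An asterisk marks an adjusted p under 0.05, "spiked" and "unspiked" name the first and second set of libraries, and grey cells marked "at 0" are CLB6 where all alpha-factor libraries at heat T0 had 0 counts. The 2 rows of unstressed nocodazole against unstressed alpha-factor cells both call CLN1, PCL1, CLB5, YOX1 and NRM1 as higher and PCL2 as lower.

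The second set compared cells arrested in mitosis with cells arrested in G1. Without stress, nocodazole cells had more CLN1, PCL1, CLB5, YOX1 and NRM1 and less PCL2 than alpha-factor cells in the salt experiment, 6 of 10 genes where 8.84% of all genes tested were called (3.99% higher and 4.85% lower). The heat experiment, with T0 libraries of its own, called these same 6 genes in the same directions and CLB6 besides, 7 of 10 where 8.47% of all genes were (3.16% higher and 5.31% lower). The median log2 differences over the 10 genes were 1.65 and 1.5, with 3.68 taken for CLB6 in the heat experiment, and those over all genes were -0.02 and 0.01. The summed level of 10 mitotic genes was 2462 to 2471 CPM in nocodazole cells and 469 to 499.7 CPM in alpha-factor cells in the salt experiment.

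PCL2 had 15.2 and 19.7 CPM in nocodazole cells of the salt experiment, against 478 and 398 CPM in alpha-factor cells (log2 difference -4.63 ± 0.30, adjusted p = 3.2e-08). In the heat experiment it had 9.78 and 12.9 CPM in nocodazole cells and 315 and 423 CPM in alpha-factor cells (-5.0 ± 0.43, adjusted p = 5.8e-05). NRM1 had 10.1 and 8.93 CPM in nocodazole cells of the salt experiment, against 0.70 and 1.11 CPM in alpha-factor cells (3.49 ± 0.54, adjusted p = 0.00034). In the heat experiment NRM1 was higher by 3.26 ± 0.41 (adjusted p = 0.00081). Both genes separated the arrests in each experiment with every single library left out.

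CLB5 had 32.6 and 29.2 CPM in nocodazole cells of the salt experiment and 8.86 and 11.1 CPM in alpha-factor cells (1.67 ± 0.24, adjusted p = 0.00016), and 30.3 and 28.8 CPM against 10.5 and 12.1 CPM in the heat experiment (1.4 ± 0.25, adjusted p = 0.0059). CLB6 had 2.93 and 5.67 CPM in nocodazole cells of the heat experiment and 0 counts in both alpha-factor libraries. Against a floor of 3 counts over these 2 libraries it was at least 12.9-fold higher (34 counts), with adjusted p = 0.013, and the call was lost without either alpha-factor library or nocodazole replicate 2 (adjusted p up to 0.076). In the salt experiment CLB6 had 4.11 and 3.41 CPM in nocodazole cells and 0.233 and 2.23 CPM in alpha-factor cells and was not called (adjusted p = 0.43).

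PCL1 had 11.6 and 13.1 CPM in nocodazole cells and 0.933 and 2.79 CPM in alpha-factor cells of the salt experiment (3.0 ± 0.72, adjusted p = 0.013), and was higher by 4.72 ± 0.50 in the heat experiment (adjusted p = 0.00027). CLN1 was higher by 1.63 ± 0.36 (adjusted p = 0.0076) and 1.60 ± 0.41 (adjusted p = 0.037), and YOX1 by 3.2 ± 0.93 (adjusted p = 0.040) and 3.2 ± 0.51 (adjusted p = 0.0033). In the salt experiment CLN1 and PCL1 were not called without alpha-factor replicate 1 or nocodazole replicate 2 (adjusted p up to 0.14 and 0.32), nor YOX1 without any 1 of the 4 libraries (up to 0.46). In the heat experiment CLN1 was not called without the libraries of the same names (up to 0.22). CLN2 (-0.77 ± 0.40 and -0.59 ± 0.25) and WHI5 (0.03 ± 0.54 and -0.05 ± 0.74) were not called in either experiment. CLN3 was not called in the salt experiment (-0.52 ± 0.31, adjusted p = 0.40) and narrowly missed the threshold in the heat experiment (-1.27 ± 0.35, adjusted p = 0.052, and 0.011 by DESeq2).

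These levels sat below those of asynchronous cells for most of the wave. The single unstressed asynchronous libraries of the salt and heat experiments had 96.9 and 77.9 CPM of CLN1, 111 and 82.6 CPM of CLN2, 89.4 and 82.3 CPM of PCL1, and 59.1 and 26.7 CPM of YOX1. In nocodazole cells CLN1 had 17.9 to 27.9 CPM, CLN2 14.3 to 23.4 CPM, PCL1 11.6 to 26.3 CPM and YOX1 4.59 to 8.14 CPM over the 4 unstressed libraries. These asynchronous groups had 1 library each and were not tested. The 4 libraries labelled t0' looked unlike the arrested T0 libraries of the same state: those labelled alpha factor had 70.6 and 53.9 CPM of CLN1 and 35.9 and 22.1 CPM of PCL2, close to asynchronous values.

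After nocodazole for 3.5 h, CLN2 had 83.5 and 130.01 CPM, against 16.2 and 23.4 CPM after nocodazole for 2 h. This was the 1 call among the 10 genes (2.35 ± 0.40, adjusted p = 0.017), in a comparison that called 0.274% of all genes tested (16 of 5836, with 562 at an unadjusted p under 0.05). It was lost without either 2 h library or 3.5 h replicate 2 (log2 difference 2.02 to 2.68, adjusted p up to 0.63). CLN3 had 252 and 189 CPM after 3.5 h, the highest unstressed values of CLN3 in the second set, against 90.3 and 101 CPM after 2 h, and was not called (1.13 ± 0.31, adjusted p = 0.15). The mitotic gene sum was 2241 to 2430 CPM after 3.5 h and 2462 to 2471 CPM after 2 h. Duration and the time at which these libraries were made cannot be told apart.

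**Figure D3:**
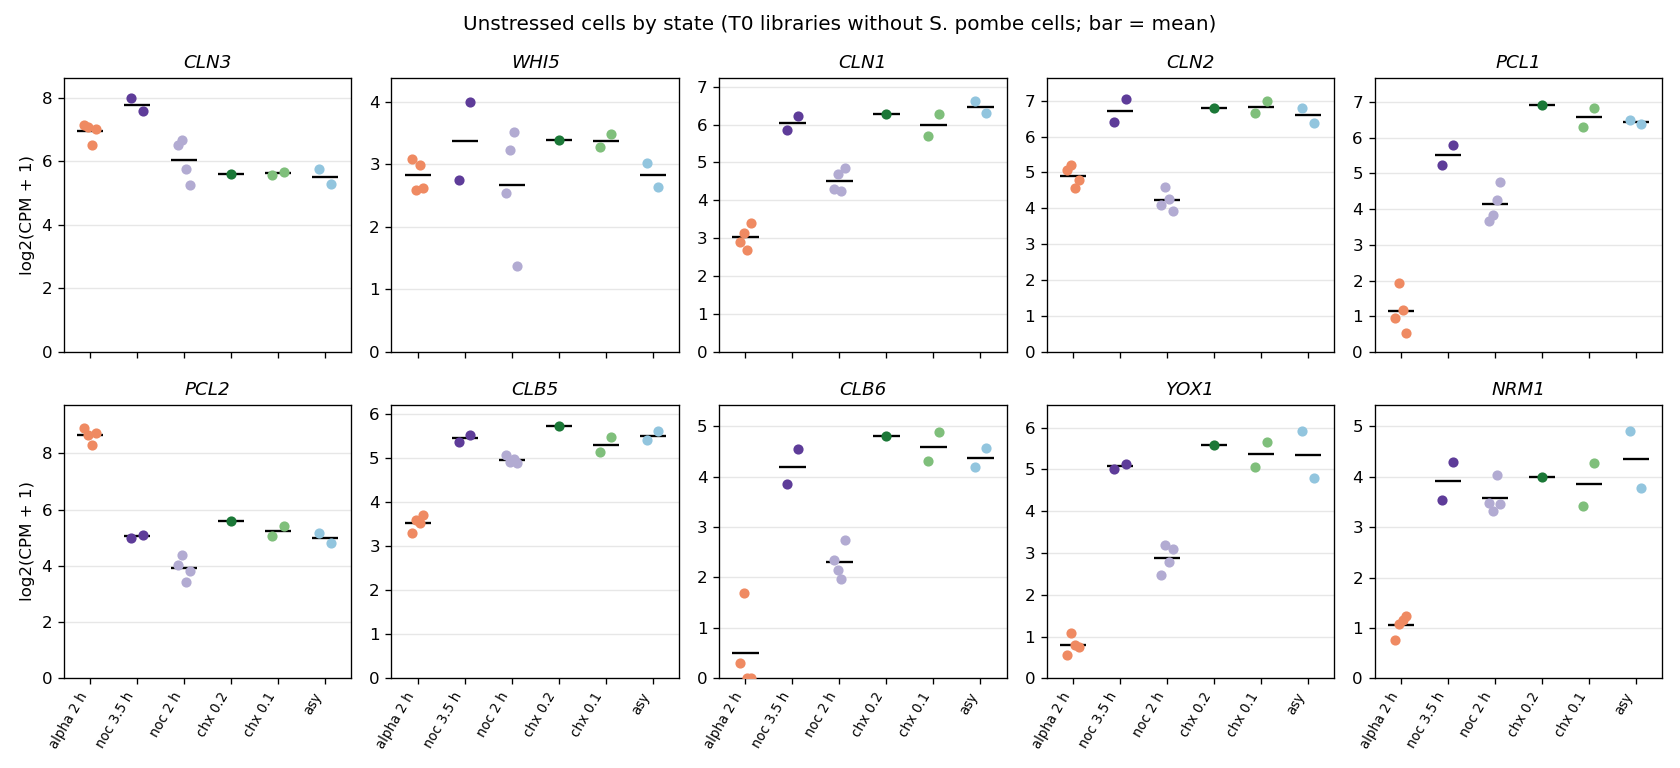
Level of each gene as log2(CPM + 1) in unstressed cells of the second set, each panel with its own scale. Points are single libraries (4 for alpha factor and nocodazole for 2 h, which pool the salt and heat experiments, 2 for asynchronous cells, nocodazole for 3.5 h and cycloheximide 0.1, and 1 for cycloheximide 0.2) and bars are means. PCL2 stands high in alpha-factor cells alone, CLN3 is highest after nocodazole for 3.5 h, and CLN1, PCL1, YOX1, CLB6 and NRM1 are lowest in alpha-factor cells.

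Salt was repeated in arrested cells of the second set. In alpha-factor cells CLN1, PCL1 and CLB5 rose, 3 of 10 genes where 5.86% of all genes tested were called (3.24% higher and 2.62% lower). CLB5 had 21.6, 22.2 and 24.8 CPM at T30 and 8.86 and 11.1 CPM at T0 (1.14 ± 0.23, adjusted p = 0.0074). CLN1 had 14.3, 20.9 and 16.9 CPM at T30 and 6.53 and 7.80 CPM at T0 (1.23 ± 0.35, adjusted p = 0.048). PCL1 had 2.55 CPM at T30 in replicate 1, 9.12 and 17.5 CPM in the replicate 2 libraries labelled 0.5 and 0.7, and 0.933 and 2.79 CPM at T0 (2.55 ± 0.71, adjusted p = 0.044). The groups were apart for CLB5 and CLN1 and overlapped for PCL1. Over the same libraries the pheromone gene sum was 5879 to 8800 CPM at T30 and 10323 to 10503 CPM at T0, with 2 of 9 genes lower and 0 higher, and the histone gene sum was 998 to 1155 CPM at T30 and 583 to 665 CPM at T0, with 2 of 8 genes higher and 0 lower. Their part in these changes was not tested.

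Without T0 replicate 1 none of the 3 was called (adjusted p up to 0.19 for CLB5, 0.37 for CLN1 and 0.49 for PCL1). CLN1 was not called without any other 1 of the 5 libraries, and PCL1 was called only without T30 replicate 1. YOX1 (3.05 ± 0.90, adjusted p = 0.057, and 0.0087 by DESeq2), CLB6 (2.40 ± 1.21), NRM1 (1.65 ± 0.60) and PCL2 (-0.64 ± 0.23) had the sign they had in the first set but were not called, and neither was CLN3 (-0.33 ± 0.28), WHI5 (-1.59 ± 0.55) or CLN2 (-0.52 ± 0.36). Of the 23 other late G1 genes 0 were called, with a median log2 change of -0.12, beside a median of 1.19 over the 10 genes and -0.02 over all genes.

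In nocodazole cells 0 of the 10 genes were called by edgeR, against 31.6% of all genes tested (14.8% higher and 16.8% lower), and PCL1 was the 1 gene called by DESeq2 (1.18, adjusted p = 0.029). PCL1 had 23.9, 35.8 and 23.8 CPM at T30, above the 11.6 and 13.1 CPM at T0 (1.14 ± 0.45, adjusted p = 0.064). CLN3 (0.10 ± 0.28), CLN1 (0.40 ± 0.29), CLB5 (-0.20 ± 0.19) and NRM1 (0.17 ± 0.32) all had log2 values under 1. The difference between the responses, nocodazole minus alpha factor, was called for CLB5 (-1.34 ± 0.30, adjusted p = 0.030) and for 2.36% of all genes tested (1.78% higher and 0.583% lower). That call held without alpha T30 replicate 1 or without either of the nocodazole T30 libraries labelled replicate 2, and was lost without each of the other 7 libraries (-1.48 to -1.19, adjusted p up to 0.27).

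The courses of replicate 1, with 1 library at each time, add the timing. In alpha-factor cells CLB5 had 8.86, 23.5, 21.6, 19.3 and 16.9 CPM at salt T0, T15, T30, T45 and T60, and CLN1 had 6.53, 23.8, 14.3, 13.3 and 10.2 CPM. Within this course both were highest at T15, but another alpha-factor library at T30 had 24.8 CPM of CLB5. CLN2 had 32.7, 17.3, 14.6, 19.7 and 21.5 CPM at these times, lowest at T30, while the other alpha-factor libraries at T30 had 32.8 and 26.7 CPM. In nocodazole cells CLN2 had 16.2, 7.73, 10.6, 23.0 and 17.5 CPM, lowest at T15 in this course, where the other nocodazole libraries at T30 had 24.5 and 14.7 CPM, and PCL1 had 11.6, 20.3, 23.9, 19.9 and 19.7 CPM. Single libraries carry no replicate check.

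With cycloheximide present, 6 of these genes fell in salt. At the label 0.1, CLN1, CLN2, PCL2, CLB5, NRM1 and WHI5 fell and 0 rose, where 33.7% of all genes tested were called (16.3% higher and 17.4% lower). The median log2 change was -0.96 over the 10 genes and -0.05 over all genes. WHI5 had 2.47 and 1.98 CPM at T30 and 8.67 and 10.2 CPM at T0 (-2.15 ± 0.54, adjusted p = 0.0059). NRM1 had 3.18 and 2.52 CPM at T30 and 9.66 and 18.4 CPM at T0 (-2.37 ± 0.38, adjusted p = 0.00020).

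CLN2 had 33.7 and 59.2 CPM at T30 in cycloheximide, against 99.1 and 126 CPM at T0 (-1.39 ± 0.37, adjusted p = 0.0089). CLN1 fell by 1.03 (standard error 0.30, adjusted p = 0.014), PCL2 by 0.90 (0.27, adjusted p = 0.018) and CLB5 by 0.79 (0.21, adjusted p = 0.0083) on the log2 scale. CLB6 had 6.71 and 8.63 CPM at T30 and 18.8 and 28.4 CPM at T0, without overlap, and was called only with pairing (-1.70, adjusted p = 0.030), as was CLN3 (0.62, adjusted p = 0.044). PCL1 (0.18 ± 0.42) and YOX1 (-0.27 ± 0.46) were not called. Without T30 replicate 1 only NRM1 and WHI5 were called, without T0 replicate 2 only NRM1, WHI5 and CLN2, and without T30 replicate 2 WHI5 and PCL2 were not (adjusted p = 0.061 and 0.088).

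At the label 0.2 the single T30 library of the second set had 19.6 CPM of CLN2, 28.9 CPM of CLN1 and 1.70 CPM of WHI5, against 111, 76.2 and 9.51 CPM in the T0 library. The first set, with 1 library each at 0.1, had 54.7 CPM of CLN2 and 1.26 CPM of WHI5 at T30 and 106 and 13.8 CPM at T0. All of these pairs were lower at T30. Of the 23 other late G1 genes, 12 fell and 2 rose in cycloheximide at 0.1, with HO (-3.66 ± 0.43) and MNN1 (-3.22 ± 0.45) falling most, as in asynchronous cells of the first set without the drug. The mitotic gene sum was 565 to 893 CPM at T30 and 1054 to 1503 CPM at T0. Its part in these changes was not tested.

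After nocodazole for 3.5 h, CLN3 rose with salt and was the 1 gene of 10 called, where 28.8% of all genes tested were (14.1% higher). It had 419 and 276 CPM at T30 and 252 and 189 CPM at T0 (0.85 ± 0.30, adjusted p = 0.044). The call was lost without T30 replicate 1 or either T0 library (log2 change 0.27 to 1.26, adjusted p up to 0.57), and without T30 replicate 2 YOX1 was called too. The mitotic gene sum was 1590 and 3643 CPM in T30 replicates 1 and 2 and 2241 and 2430 CPM at T0, and T30 replicate 1 had the lowest TMM scaling factor of its fit, 0.81. The part of these differences in the CLN3 change was not tested.

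On heat, 1 gene of the 10 was called. In nocodazole cells CLN2 fell to 5.51, 5.66 and 4.23 CPM at T10, against 18.3 and 14.3 CPM at T0, where 33.1% of all genes tested were called (16.8% lower). The fall was 1.59 on the log2 scale, with a standard error of 0.25 (adjusted p = 0.00083), and it was called with any 1 library left out. The mitotic gene sum was 1733 to 2236 CPM at T10 and 2452 to 2454 CPM at T0, with 2 of 10 genes lower, and its part was not tested. In alpha-factor cells CLN2 had 17.7, 16.9 and 17.0 CPM at T10 and 22.6 and 26.5 CPM at T0, also without overlap, with a change of -0.47 ± 0.22 that was not called (adjusted p = 0.19). The direct test of the difference, nocodazole minus alpha factor, was -1.12 ± 0.34 and was not called (adjusted p = 0.15).

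No gene of the 10 was called in alpha-factor cells on heat, where 15.3% of all genes tested were (7.05% higher and 8.24% lower), nor in the difference of the responses, where 1.37% were (0.58% lower, 78 of 5689, with 746 at an unadjusted p under 0.05). With DESeq2 both counts were 0 as well. Nearest in alpha-factor cells was YOX1, with 2.27, 1.77 and 1.86 CPM at T10 and 0.746 and 0.673 CPM at T0 (1.48 ± 0.53, adjusted p = 0.090). CLN3 had 54.0, 80.4 and 44.1 CPM at T10 and 89.8 and 128 CPM at T0 (-0.84 ± 0.31, adjusted p = 0.095). CLB6 had 3, 4 and 0 counts in the 3 libraries at T10 and 0 in both at T0, so the groups overlapped. Its pooled level at T10 was 1.69-fold the floor of 3 counts at T0, which sets no least rise, and it was not called. PCL1 in nocodazole cells had 15.2, 11.3 and 7.76 CPM at T10 and 18.3 and 26.3 CPM at T0 (-0.93 ± 0.34, adjusted p = 0.057). The CLN2 course of replicate 1 on heat in nocodazole cells was 18.3, 5.51, 11.9, 12.5 and 24.3 CPM at T0, T10, T20, T30 and T40, so it was low at T10 and highest at T40. The single asynchronous libraries had 9.69 CPM of CLN2 at T10 and 82.6 CPM at T0, 28.4 and 77.9 CPM of CLN1, and 31.9 and 82.3 CPM of PCL1.

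Of the 23 other late G1 genes, 5 fell and 1 rose in nocodazole cells, with SVS1 (-2.42 ± 0.43) and HO (-2.28 ± 0.37) falling most, and 2 fell and 2 rose in alpha-factor cells. Of the 18 Start regulators, 4 rose and 1 fell in nocodazole cells, with XBP1 (3.11 ± 0.31) and RME1 (1.89 ± 0.28) rising and FAR1 falling (-2.46 ± 0.57). In salt-treated nocodazole cells the same 3 genes were called in the same directions, XBP1 at 3.28 ± 0.51, RME1 at 2.13 ± 0.30 and FAR1 at -2.32 ± 0.27.

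**Figure D4:**
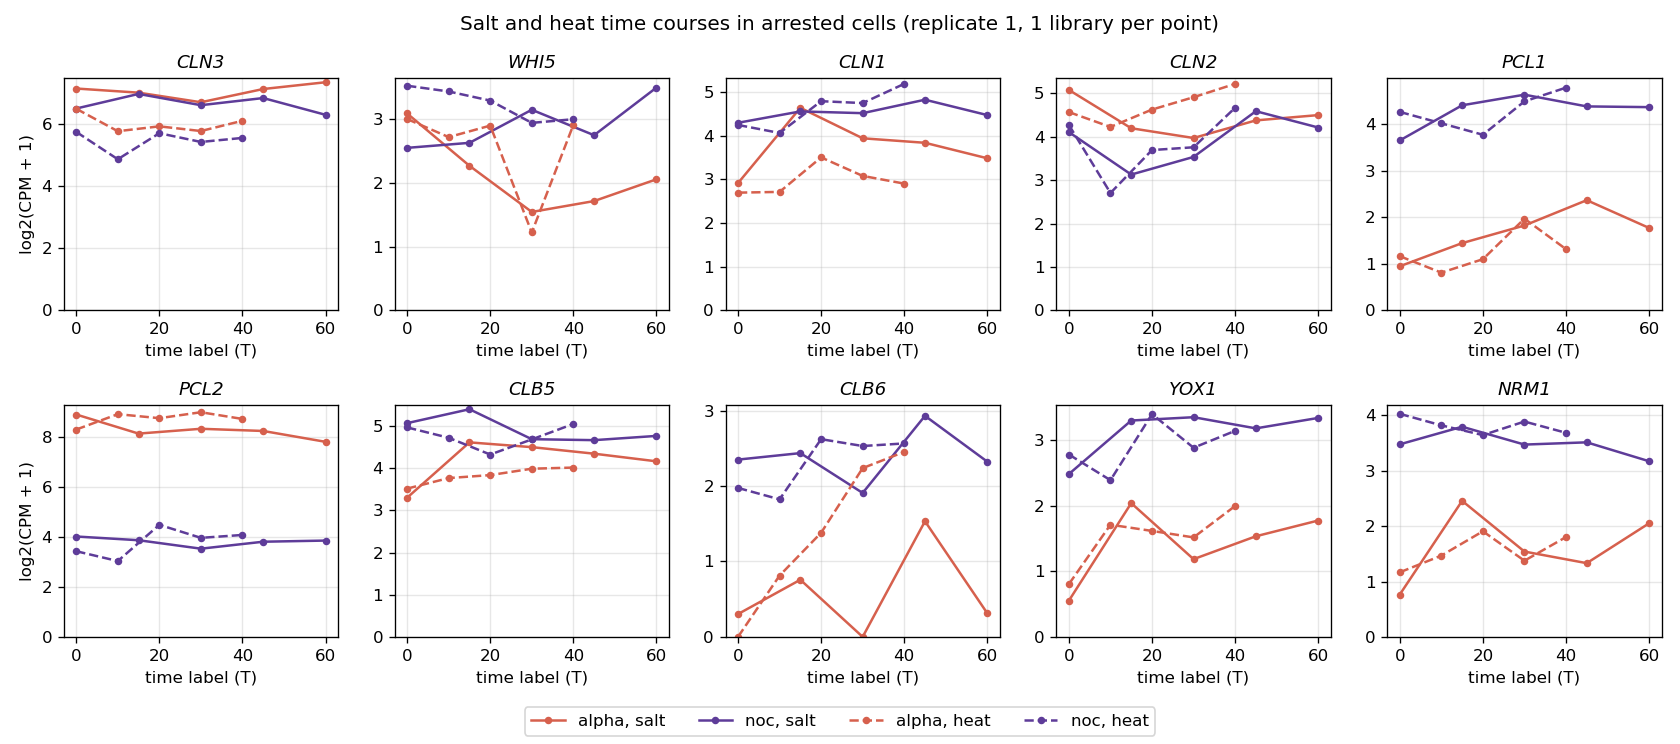
Level of each gene as log2(CPM + 1), with its own scale, by time label in the replicate 1 courses on salt (solid, T0 to T60) and heat (dashed, T0 to T40) in cells arrested with alpha factor or nocodazole. Each point is 1 library. PCL2 is high throughout in alpha-factor cells, CLN2 dips at the first times in nocodazole cells, and in alpha-factor cells CLB5 (8.86 and 23.5 CPM) and CLN1 (6.53 and 23.8 CPM) are lower at salt T0 than at T15.

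Over the 50 libraries of the second set the 10 genes formed 1 tight group and several that stood apart. YOX1 and PCL1 had a Pearson r of 0.94 over log2(CPM + 1), YOX1 and CLN1 0.92, CLN1 and PCL1 0.91, and CLN1 and CLB5 0.87. PCL2 ran against NRM1 (-0.79) and PCL1 (-0.72), and CLN3 had no r above 0.27 with another of the 10. These correlations share the arrest states and the library totals and describe these libraries alone.

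Among 5152 genes averaging 10 CPM or more, the pattern nearest to PCL2 was that of FIG2, a mating adhesin gene (0.97), followed by the pheromone-regulated PRM2 (0.96). With the 10 genes themselves left out of this search, those nearest to CLN1 were BUD9 and EGT2 (0.91 each), and EGT2 was also nearest to PCL1 (0.91). CLB6 was closest to RNR1, which encodes ribonucleotide reductase (0.88), CLN2 to SVL3 (0.88), CLB5 to SNL1 (0.85), CLN3 to FLO10 (0.82) and NRM1 to the mitotic cyclin gene CLB1 (0.90). WHI5 had the weakest nearest neighbour, CYC8 (0.69). YOX1 was closest to TOS6 (0.91), below its r with PCL1 and CLN1. For CLN1, PCL1 and CLB5, too, another of the 10 genes had a higher r than any gene found in this search.

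Polysome gradients sort RNA by how many ribosomes it carries. Counts of each fraction were scaled by S. pombe counts, and for each gene the scaled counts in fractions of 2 ribosomes and above (2R to 6R>) were set over those in the lighter fractions, which start with free RNA and protein (RNP). In asynchronous cells nearly all of the 10 genes lay under the median of all 5053 genes, some only slightly. They were 10 and 9 of 10 in the 2 gradients at T30 (replicates 2 and 1), and 10 of 10 in both at T0. The 1 exception was WHI5 in T30 replicate 1.

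PCL1 was the lightest, with 15% and 8.22% of its scaled counts in 2R and above at T30 and 7.00% and 5.70% at T0, against 47.1% and 34.4% of all counts at T30 and 40.6% and 37.9% at T0. CLB5 had 19.5% and 18.6% at T30 and 11.6% and 8.02% at T0, and PCL2 had 17.4% and 13.5% at T30 and 10.1% and 9.52% at T0. CLN3, whose transcript carries a short upstream reading frame, had 23.6% and 19.5% at T30 and 18.4% and 16% at T0. YOX1 had 26% and 14.3% at T30 and 23.3% and 17.0% at T0. The share of all counts is weighted to abundant RNAs and is not that of a typical gene. Gene by gene at T0, 46.0% and 39.1% of genes had a lower ratio than YOX1 in replicates 1 and 2. For CLN3 these shares of genes were 29.5% and 34.8%, for CLB6 10.5% and 45.6%, and for PCL1 1.41% and 1.72%. The lightest fraction, labelled RNP, held most of the rest: 63.1% and 76.6% of PCL1 at T30 and 59.9% and 57.0% at T0, against 22.8% and 32.6% of all counts at T30 and 30.7% and 26.8% at T0.

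In the 1 alpha-factor gradient PCL2, with 14079 counts over the fractions, had 23.4% in 2R and above and CLN3, with 6261 counts, 28.7%, where all counts had 50.8%. CLB6 (12 counts), YOX1 (39 counts) and PCL1 (41 counts) were too few there to place. The other 7 genes all lay under the median of all genes.

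None of the 10 genes was called for a change of its polysome ratio with salt by limma, where 2.47% of all genes tested were (116 higher and 9 lower of 5053), and 2 of the 10 had an unadjusted p under 0.05. The ratio of WHI5 differed by 1.34 ± 0.49 (adjusted p = 0.15) and that of CLB5 by 1.14 ± 0.49 (adjusted p = 0.26), T30 minus T0, with log2 ratios for CLB5 of -2.04 and -2.13 at T30 and -2.93 and -3.52 at T0. For CLB5, PCL1 (0.90 ± 0.49), WHI5, PCL2, CLN1 and CLN3 both T30 gradients lay above both T0 gradients. How many of all genes had this order was not counted, so it does not set these genes apart. The median difference was 0.34 over the 10 genes and 0.36 over all genes. Without T30 replicate 2, WHI5 and PCL1 were called (adjusted p = 0.0013 and 0.036).

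Enrichment in the heaviest fraction, 6R>, over the input at T0 was tested by edgeR and called 0 of the 10 genes and 1 of 5348 genes (0.0187%), with 560 genes at an unadjusted p under 0.05, and its change, T30 minus T0, called 0 of 5348, with 236 at an unadjusted p under 0.05. DESeq2 called 0 of the 10 in both. CLN3 at T0 was nearest at -0.91 ± 0.42 (adjusted p = 0.47). With 2 gradients at each time, these p-values leave the smaller differences unresolved.

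**Figure D5:**
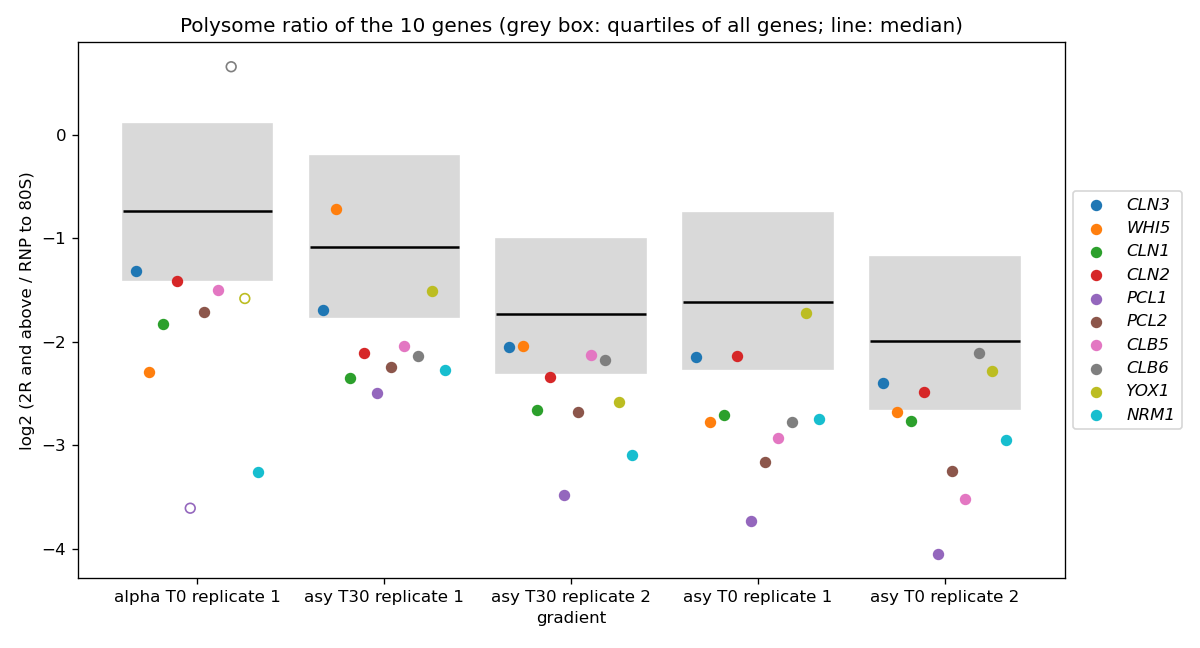
Log2 of scaled counts in 2R and above over those in the lighter fractions for the 10 genes in each gradient, with the median (line) and quartiles (grey box) of all 5053 genes. Open circles are CLB6, PCL1 and YOX1 in the alpha-factor gradient, with 12, 41 and 39 counts. In asynchronous cells all points lie under the line except WHI5 in T30 replicate 1, and PCL1 is lowest in all 4 gradients.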

How the data were processed

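Total RNA was depleted of ribosomal RNA and sequenced from 66 whole-cell and 50 polysome libraries, per the labels' protocols. The authors deposited raw read counts per open reading frame. The tools were Trimmomatic 0.32, Bowtie2 and HTSeq 0.6.1, per the submitters' processing notes. No source used here names the genome build, the annotation or the strand setting, so no coordinates or lengths are printed, levels are not compared per length, and promoters were not searched. Symbols came from the RefSeq gene table of assembly R64, which shows no other gene overlapping any of the 10. A further polysome count table of the series, with 70 count columns that match no label, was not used.

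Each of the sets (with spike, salt without spike, heat without spike, polysome) was fitted apart with edgeR 4.0.16 in R 4.3.3 (TMM scaling, filterByExpr, quasi-likelihood F test, two-sided), with all groups of the set in 1 fit. Rows that name no gene, at most 0.00545% of counts, and S. pombe rows were left out. S. pombe made up 5.53 to 14.2% of counts in the first set. Polysome ratios had an offset of 1 read of the deepest library, were made for genes averaging 10 CPM or more in the inputs and were tested with limma 3.58.1. They assume that every fraction received as much S. pombe RNA. DESeq2 1.42.0, other scalings, no filter, a replicate block and leaving out each library were alternatives. The fits were tested on simulated data.

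Libraries with the same replicate number deviated together in the spiked set (r of 0.31 to 0.71 in 18 pairs) and among the cycloheximide and 3.5 h nocodazole groups (0.20 to 0.65 in 12 pairs). The numbers were therefore read as pairing these, and the value with the block is given where it changes a call. The main calls, the ± values and the fits that left out 1 library were all made without this block. Whether calls lost in those fits would hold with pairing was not tested. The 10 genes, the gene lists (18 Start regulators, 23 late G1 genes, 9 Pho85 genes and markers of pheromone, mitosis, S phase and stress) and the tests were chosen with earlier results of these data known. All 10 genes are named, and of each list at most the 4 called genes with the largest change and at least 10 CPM. The ± values are standard errors from the fits and include the spread between libraries. Floors (3 counts) cover counting error only.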

Additional observations from a re-analysis of the deposited data

Results flagged for a closer look

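In the libraries with S. pombe cells, 4 of the 10 genes responded to salt differently in alpha-factor cells than in asynchronous cells by a test of the difference itself. The difference of the log2 changes, alpha factor minus asynchronous, was 6.28 for CLB6, 4.35 for NRM1, 3.15 for CLN1 and 2.46 for CLB5. For all 4 genes each asynchronous library at T30 lay below each at T0, while in alpha-factor cells each library at T30 lay above each at T0 for NRM1, CLN1 and CLB5, and 2 of 3 did for CLB6. These are the libraries of the test that picked the genes, so their order is no separate support. It was not counted over all genes. Replicate 2 of alpha factor at T30 had the highest value of all 4 genes in its group. Of 12 fits that each left out 1 library, the NRM1 call held in 12, that of CLB6 in 7, that of CLN1 in 4 and that of CLB5 in 3. Without alpha T30 replicate 2 the CLB6 difference was 3.31 and was not called.

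In the libraries without a spike, CLB5 responded to salt differently in nocodazole cells than in alpha-factor cells, with a difference of -1.34 on the log2 scale. All 3 alpha-factor libraries at T30 lay above both at T0, and 2 of 3 nocodazole libraries at T30 lay below both at T0. Here too the test used these same libraries, so their order is no separate support. The call was lost without any of several single libraries, as given above.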

How the results depend on the processing

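Of the 10 genes, the number called by edgeR moved by more than 1.5 times, or between 0 and more, in the cases given here with the main count in brackets. With the replicate block it was 5 for salt in asynchronous cells of the spiked set [3], 7 for the difference of the salt responses there [4], 4 for alpha T30 minus asynchronous T30 [2], 5 for nocodazole 3.5 h minus 2 h [1], 1 for salt in nocodazole cells [0], 2 for heat in nocodazole cells [1] and 3 for the polysome ratio [0]. The block does not pair 2 h with 3.5 h libraries. For the last 3 comparisons the labels do not say whether same-numbered libraries are paired, and the values leave this open. Same-numbered libraries had r of -0.44 to 0.54 (median 0.05) in the salt experiment. The values were -0.51 to 0.80 (0.28) in the heat and -0.14 to 0.37 (0.05) in the polysome experiment. Libraries of different number had medians of -0.04, -0.20 and -0.05, so the heat medians lay furthest apart. The cause of these shifts in the number called was not tested. With S. pombe totals as library sizes it was 0 for salt in asynchronous cells, 2 for the difference and 1 for alpha T30 minus asynchronous T30. That last count was 5 with S. pombe totals and the block, an alternative chosen after seeing the data. This scaling moved the median of all genes by up to 0.61 in whole-cell comparisons and turned no call round. In a fit of the libraries of the comparison alone, with fewer degrees of freedom, it was 5 for salt in asynchronous cells, 1 for salt in alpha-factor cells [6], 1 for alpha T30 minus asynchronous T30, 1 for salt in nocodazole cells, 0 for salt after nocodazole for 3.5 h [1], 7 for nocodazole 3.5 h minus 2 h and 4 for nocodazole T0 minus alpha T0 of the heat experiment [7]. DESeq2 gave 1 for salt in nocodazole cells and 5 for nocodazole 3.5 h minus 2 h, where RLE factors and no filter gave 2 each. Scaling gradient fractions by S. cerevisiae totals gave 4 for the polysome ratio.

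Leaving out 1 library at a time gave 1 to 2 for salt in asynchronous cells, 0 to 7 in alpha-factor cells, 1 to 6 for their difference, 6 for alpha T0 minus asynchronous T0 [8] and 1 to 4 for alpha T30 minus asynchronous T30. In the second set it gave 0 to 3 for salt in alpha-factor cells [3], 0 to 1 for the difference nocodazole minus alpha factor [1], 3 to 5 for nocodazole T0 minus alpha T0 [6], 2 to 6 in cycloheximide [6], 0 to 2 for salt after nocodazole for 3.5 h, 0 to 1 for 3.5 h minus 2 h, 1 to 2 for heat in nocodazole cells, 5 to 7 for nocodazole T0 minus alpha T0 of the heat experiment and 0 to 2 for the polysome ratio, and 0 in the other comparisons. Groups left with 1 library are assumed to vary like the others. Genes under about 5 CPM, as CLB6, NRM1, PCL1 and YOX1 in alpha-factor cells, rest on few counts. So do WHI5 (14 and 11 counts) and NRM1 (18 and 14 counts) at salt T30 in cycloheximide 0.1 of the second set. The WHI5 value of 1.26 CPM at T30 in cycloheximide 0.1 of the first set was 2 counts.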
